A study of Saccharomyces cerevisiae with 6 samples.

Results

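The genes described here make the fatty acids and phospholipids of yeast membranes or regulate the genes that do. They are FAS1, FAS2, OLE1, INO1, CHO1, CHO2 and OPI3, which encode enzymes, and INO2, INO4 and OPI1, which encode regulators. They were chosen by name, and the platform's annotation ties 24 probe sets to these 10 genes, out of 9335 on the array. For each gene the probe set with the highest mean signal was used, and 5656 genes were tested in all. The comparison asked which transcripts differ between [GAR+] and [gar-] cells. [GAR+] is a prion, a protein-based element inherited without a change in DNA, whose carriers can use other carbon sources in the presence of a glucose mimic. [gar-] cells lack it. Both groups were the laboratory strain W303, with 3 separately grown cultures of [GAR+] and 3 of [gar-] cells and 1 Affymetrix array per culture. All were grown in complete synthetic medium with 2% glucose and harvested late in exponential growth, at an OD600 near 0.8. The labels name no other allele. They do not say how the prion was obtained or whether the cultures of a group came from 1 clone.

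In yeast the fatty acid synthase is a complex of Fas1 and Fas2 chains that builds saturated fatty acids from malonyl units made by Acc1. Ole1 then introduces a double bond, and its transcript is known to be repressed by unsaturated fatty acids in the medium. Phosphatidic acid is the branch point for phospholipids. It is activated to CDP-diacylglycerol and turned into phosphatidylserine, phosphatidylethanolamine and phosphatidylcholine, or joined to inositol made by Ino1. The Ino2 and Ino4 proteins bind together at an inositol-sensitive promoter element and switch on many of these genes. Opi1 represses them when inositol is plentiful and phosphatidic acid in the endoplasmic reticulum is used up.

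The arrays first needed a common scale, since their trimmed mean signals ran from 192 to 500 as deposited, and all levels below are quantile-normalised MAS5 signals. Signed values are differences of log2(signal + 16), [GAR+] minus [gar-], and are called log2 fold changes. This scale understates changes of dim genes. Over all 6504 probe sets tested, 1 passed limma at an adjusted p under 0.05. It was HXT3, a glucose transporter gene, with signals of 58.7, 75.4 and 42.8 in [GAR+] cultures and 4404, 4347 and 3559 in [gar-] cultures. In these bulk RNA samples, less transcript in every cell and fewer cells with the transcript cannot be told apart. The summed signal of 7 genes specific to mating type a was 6430 to 8524 in [GAR+] and 5353 to 6785 in [gar-] cultures. That of 4 alpha-specific genes was 108 to 138 in [GAR+] and 103 to 116 in [gar-] cultures.

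None of the 10 lipid synthesis genes differed detectably between [GAR+] and [gar-] cultures. In limma 0 of 10 passed, where 0.0177% of all genes did, and the adjusted p was 1.00 for each. At an unadjusted p under 0.05 there were again 0, against 2.78% of all genes. The values of the 2 groups overlapped for all 10, while 8.98% of all genes had groups that did not overlap. Of the 10 fold changes 5 lay above 0 and 5 below, with a median of -0.01, beside 0.01 over all genes. They ran from -0.17 for FAS1 to 0.30 for CHO1. The main fit did not use the culture number. Its 95% confidence interval lay within 2-fold in either direction for 10 of 10 genes, and for 96.0% of all genes. It lay within 1.5-fold for 7, all but FAS1, CHO1 and INO4, and for 61.9% of all genes. With a pseudocount of 1 in place of 16 it did so for 6, since the interval of the dim INO1 then ran from 0.679-fold to 1.65-fold. INO1 counts among the 10 and the 7. Its signal was at or near background, so its interval is no bound on a change in transcript.

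**Figure D1:**
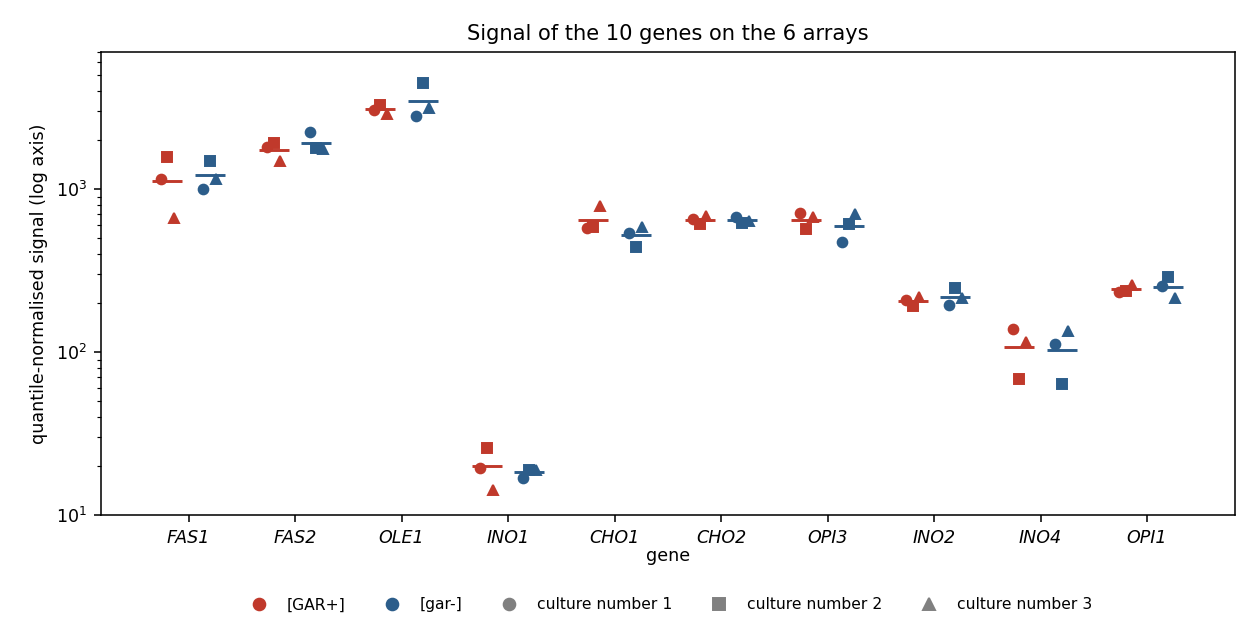
Quantile-normalised signal (log axis) of each of the 10 genes on the 6 arrays, with [GAR+] cultures left of [gar-] cultures, marker shapes for the culture number and a bar at the mean of 3 arrays. The groups overlap for every gene, and INO1 is the dimmest probe set, between 14.3 and 26.0. Signals of different probe sets are not comparable as transcript levels.

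Neither fatty acid synthase gene passed. FAS2 (YPL231W), which encodes the alpha subunit with the acyl carrier and condensing activities, read 1824, 1931 and 1481 in [GAR+] cultures 1 to 3, and 2230, 1794 and 1754 in [gar-] cultures 1 to 3. Only [GAR+] culture 3 lay below every [gar-] value, and [gar-] culture 1 lay above every other array. FAS2 thus differed by -0.14 (standard error 0.15, limma, adjusted p = 1.00), and the interval ran from 0.715-fold to 1.15-fold. FAS1 (YKL182W), which encodes the beta subunit, read 1158, 1570 and 664 in [GAR+] cultures and 1004, 1484 and 1162 in [gar-] cultures. [GAR+] culture 3 was the lowest of the 6 and [GAR+] culture 2 the highest, so the [GAR+] values span the [gar-] ones. The change was -0.17 (standard error 0.28, limma, adjusted p = 1.00). Without [GAR+] culture 3 it was 0.16.

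Both synthase genes are measured by 8 probe sets each. Where these lie along the transcripts was not known, so they are not shown to be equivalent readings of 1 transcript. None of the 16 passed, with or without the culture number as a block. The fold changes ran from -0.32 to 0.36 for FAS1, with 5 of 8 above 0, and from -0.14 to 0.17 for FAS2, with 7 of 8 above 0. Mean signals ran from 1174 down to 93.7 for FAS1 and from 1836 down to 15.4 for FAS2. The dimmest FAS2 probe set, among those 7, read 12.3 to 21.6 and so was near background. The highest control probe set that matches no yeast sequence read 12.7 to 27.6 over the arrays. The chosen probe set of FAS1 was nearly matched by another of almost the same mean signal, 1168 against 1174, which gave -0.32 with a standard error of 0.17 (limma, unadjusted p = 0.0871, adjusted p = 1.00). That probe set read 1240, 951 and 932 in [GAR+] cultures and 1158, 1487 and 1240 in [gar-] cultures, with groups that overlapped. With the block 2 of the 16, both of FAS1, had an unadjusted p under 0.05, beside 441 of the 6504 probe sets tested. They gave 0.34 and 0.36 (limma with the block, unadjusted p = 0.0373 and 0.0359, adjusted p = 0.735 for both) and were higher in [GAR+] at each of the 3 culture numbers. Averaged over all their probe sets, the changes were 0.07 for FAS1 and 0.07 for FAS2, on the other side of 0 from the chosen ones. That average gives dim probe sets the same weight as bright ones.

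The probe sets of both synthase genes also followed the culture number. For 12 of the 16 synthase probe sets, 6 of each gene, both arrays numbered 2 read above both arrays numbered 1, and for 0 the order was the opposite. The same order held for 26.2% of all probe sets tested. Among the 664 probe sets of the other 103 genes with at least 4 probe sets it held for 21.4%, and 7 of those genes had it in 75% or more of theirs. The other orders were less marked. Both arrays numbered 3 read above both numbered 1 in 9 of the 16, and both numbered 2 above both numbered 3 in 9. Of the 6504 probe sets tested, 1454 and 1703 had these orders. The 16 are repeated readings of FAS1 and FAS2 only. The widest gap between numbers 2 and 1 was in a FAS1 probe set. It read 698 in [GAR+] culture 2 and 532 in [gar-] culture 2, against 202 in [GAR+] and 140 in [gar-] culture 1. A FAS2 probe set read 183 in [GAR+] and 185 in [gar-] culture 2, against 71.2 in [GAR+] and 71.7 in [gar-] culture 1. Among the other 4 probe sets, between cultures numbered 2 and 1 the chosen one of FAS2 differed by -0.12 on the log2 scale. The second of FAS1 differed by -0.01, the dimmest of FAS1 by 0.12 and the dimmest of FAS2 by 0.04. The ratio of the 3' to the 5' control probe set of actin, ACT1, a usual check of RNA integrity taken here from the deposited signals, was 1.04 in [GAR+] and 1.17 in [gar-] culture 2. It was 1.31 in [GAR+] and 1.64 in [gar-] culture 1, and 1.29 in [GAR+] and 1.42 in [gar-] culture 3. For SPT15 the same ratio was higher, at 2.82, 3.41 and 2.98 on [GAR+] arrays 1 to 3 and 2.98, 1.85 and 2.82 on [gar-] arrays 1 to 3. For SRB4 it was higher still, at 7.41, 5.95 and 4.32 on the [GAR+] arrays and 5.69, 9.72 and 4.48 on the [gar-] arrays. The ratios of SPT15 and SRB4 thus did not put the arrays in the order of ACT1. Their part in the synthase pattern was not tested.

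**Figure D2:**
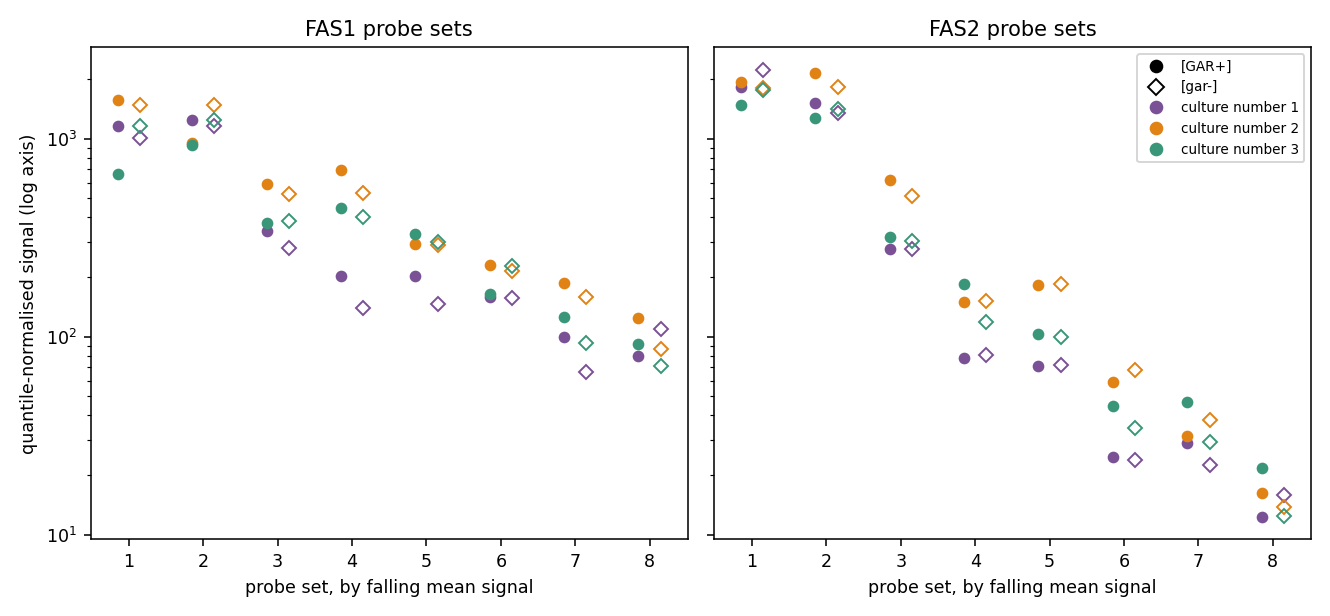
Quantile-normalised signal (log axis) of the 8 probe sets each of FAS1 and FAS2, ordered by falling mean, with filled circles for [GAR+], open diamonds for [gar-] and a colour per culture number. The arrays numbered 2 lie above those numbered 1 in 12 of the 16 probe sets.

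OLE1 (YGL055W) encodes the delta-9 desaturase, the only enzyme of yeast that makes monounsaturated fatty acids. Its signal was 3084, 3296 and 2915 in [GAR+] cultures and 2821, 4511 and 3155 in [gar-] cultures. [gar-] culture 2 stood above the other arrays, and the remaining 5 lay between 2821 and 3296. The change was -0.15 (standard error 0.17, limma, adjusted p = 1.00), or 0.05 without [gar-] culture 2. The means were 3099 ± 191 in [GAR+] and 3496 ± 895 in [gar-] cultures (SD, n = 3 each).

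INO1 (YJL153C), the inositol-3-phosphate synthase gene, is known as a tightly regulated target of Ino2 and Ino4 and is repressed when inositol is supplied. It read 19.6, 26.0 and 14.3 in [GAR+] cultures and 16.9, 19.0 and 19.0 in [gar-] cultures. Of 16 control probe sets that match no yeast sequence, the highest read 18.8, 15.1 and 20.2 on the [GAR+] arrays and 27.6, 21.4 and 12.7 on the [gar-] arrays. INO1 was above that control on 3 of 6 arrays, so its transcript was at or near the background in both groups. The change of 0.06 with a standard error of 0.15 (limma, adjusted p = 1.00) is therefore no bound on a change in transcript. The other 9 genes exceeded the highest control on every array. The labels do not give the inositol content of the medium.

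The enzymes of the phosphatidylcholine route follow CDP-diacylglycerol. CHO1 (YER026C), the phosphatidylserine synthase gene, had the largest change of the 10. It read 575, 583 and 788 in [GAR+] cultures and 536, 442 and 589 in [gar-] cultures. [GAR+] culture 3 was highest and [gar-] culture 2 lowest, and the other 4 arrays interleaved. The change was 0.30 (standard error 0.18, limma, unadjusted p = 0.136, adjusted p = 1.00), a 1.23-fold difference with an interval of 0.925 to 1.63. With the culture number as a block its standard error was 0.13 (limma with the block, unadjusted p = 0.0505, adjusted p = 0.736). CHO1 was also the 1 gene of the 10 with a difference of the same sign at each culture number, 0.10, 0.39 and 0.41 at numbers 1 to 3, which held for 29.5% of all genes.

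CHO2 (YGR157W) and OPI3 (YJR073C) encode the methyltransferases that turn phosphatidylethanolamine into phosphatidylcholine. CHO2 was the steadiest of the 10 genes, at 659, 608 and 687 in [GAR+] cultures and 675, 619 and 636 in [gar-] cultures. Its highest array exceeded its lowest by a factor of 1.13. The change was 0.02 with an interval of 0.812-fold to 1.26-fold. OPI3 read 713, 569 and 671 in [GAR+] cultures and 471, 609 and 705 in [gar-] cultures. Its lowest array was [gar-] culture 1, and without it the change was -0.02 in place of 0.14 (standard error 0.18, limma, adjusted p = 1.00).

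**Figure D3:**
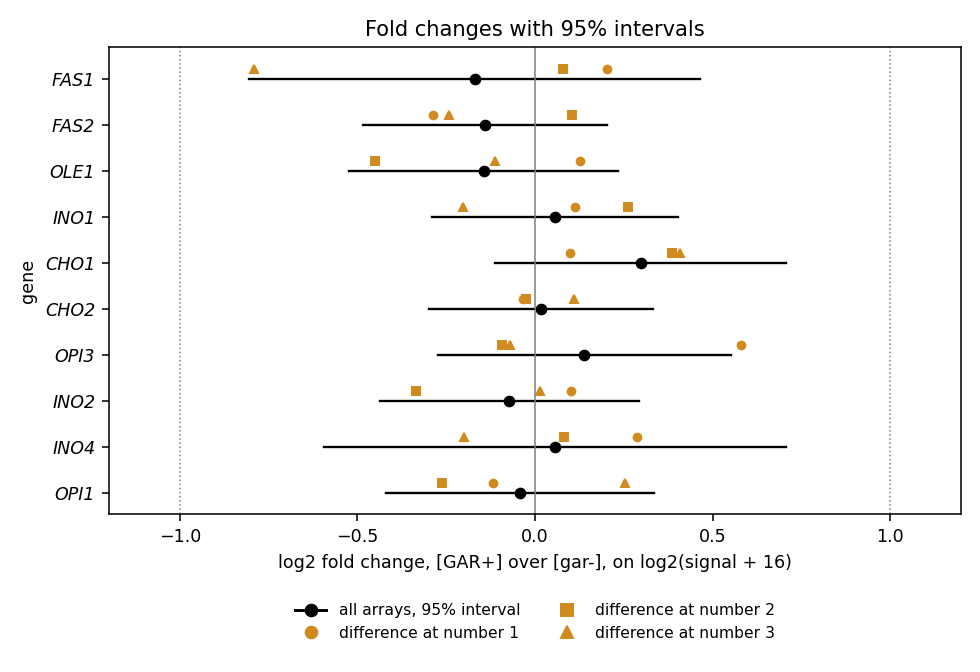
Log2 fold changes of [GAR+] over [gar-] cultures for the 10 genes, with 95% confidence intervals (black) and the [GAR+] minus [gar-] difference at each culture number (orange). Every interval includes 0 and lies between the dotted lines at 2-fold, and only the points of CHO1 lie on 1 side of 0. The interval of INO1, a signal near background, is no bound on a change in transcript.

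None of the regulator genes passed either. INO2 (YDR123C), whose product carries the activation domain of the Ino2-Ino4 pair, read 209, 193 and 217 in [GAR+] cultures and 194, 248 and 215 in [gar-] cultures. Every [GAR+] value lay within or just below the span of the [gar-] values. The change was -0.07 (standard error 0.16). OPI1 (YHL020C), the repressor gene, read 234, 239 and 258 in [GAR+] cultures and 255, 290 and 214 in [gar-] cultures, with every [GAR+] value inside the [gar-] span. Its change was -0.04 with a standard error of 0.17. Neither passed limma (adjusted p = 1.00 for both).

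INO4 (YOL108C), which encodes the partner of Ino2, varied by culture number. It read 140, 68.1 and 116 in [GAR+] cultures and 112, 63.5 and 136 in [gar-] cultures, so both arrays numbered 2 lay below the other 4. The change was 0.06 (standard error 0.29, limma, adjusted p = 1.00). In this fit without the culture number, the interval of 0.662-fold to 1.63-fold was the widest of the 10 on the log2 scale. With the culture number as a block the standard error was 0.15 for INO4, below the 0.19 of FAS1. Over all genes, 12.4% had both arrays numbered 2 below the other 4 and 17.8% had both above. Of the 10 genes these were INO4 and CHO2 below and FAS1 and OLE1 above.

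The rest of the lipid network was described through 77 further genes on 10 lists of enzymes, transporters and regulators. In limma 0 of 77 passed in either direction, 43 lay above 0 and 34 below, and the median was 0.02. At an unadjusted p under 0.05 there was 1, CDS1. With the culture number as a block there were 3, CDS1, EPT1 and RSP5, beside 6.61% of all genes, and again 0 passed (smallest adjusted p = 0.735). Groups did not overlap for 7 of the 77, a share of 9.09% beside 8.98% of all genes (4.42% higher and 4.56% lower in [GAR+]). Of these, CDS1, LRO1 and SCT1 were higher and HNM1, FAA2, INM2 and DGA1 lower in every [GAR+] culture. SCT1, INM2 and DGA1 are named because they complete this count and were picked after their values were seen. The gap between the groups was narrow for SCT1, FAA2, INM2 and DGA1. The lowest [GAR+] value of SCT1 was 145.3 and its highest [gar-] value 143.6. The highest [GAR+] and lowest [gar-] values were 41.2 and 42.4 for FAA2, 135 and 140 for INM2, and 252 and 258 for DGA1.

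CDS1 encodes the synthase that makes CDP-diacylglycerol, the step before CHO1. It read 361, 317 and 312 in [GAR+] cultures and 219, 247 and 268 in [gar-] cultures, with no overlap. The change was 0.41 (standard error 0.16, limma, unadjusted p = 0.0292, adjusted p = 1.00). PSD1, the mitochondrial phosphatidylserine decarboxylase gene that follows CHO1, gave 0.31, where [GAR+] culture 2 read 302 and the other 5 arrays 166 to 200. On the list of 5 genes of this branch 0 passed, and the median was 0.01.

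In the Kennedy pathway, which builds phosphatidylethanolamine and phosphatidylcholine from ethanolamine and choline, 0 of 7 genes passed and the median was -0.05. EPT1, an ethanolaminephosphotransferase gene, gave -0.45 with a standard error of 0.21 (limma, adjusted p = 1.00). It read 88.1, 89.5 and 114 in [GAR+] cultures and 106, 187 and 133 in [gar-] cultures, and [GAR+] culture 3 overlapped [gar-] culture 1. HNM1, the choline transporter gene, read 380, 419 and 395 in [GAR+] cultures and 445, 587 and 441 in [gar-] cultures, without overlap, a change of -0.28 that did not pass. Of 9 genes outside the 10 that are described with the inositol-sensitive element, CDS1, EPT1 and HNM1 among them, 0 passed, 5 lay above 0 and 4 below.

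Inositol supply gave 0 of 5 and a median of 0.13, with the inositol transporter gene ITR2 at 0.24 (271 in [gar-] culture 2 against 393 to 482 on the other 5 arrays) and the inositol monophosphatase gene INM1 at -0.21. For phosphatidic acid and neutral lipid 0 of 13 passed and the median was -0.10. LRO1, which makes triacylglycerol from diacylglycerol and a phospholipid, read 128, 117 and 136 in [GAR+] cultures and 94.4, 98.3 and 107 in [gar-] cultures, a change of 0.30. SLC1, an acyltransferase gene of phosphatidic acid synthesis, gave 0.29. Among 7 other regulators of INO1 0 passed, with INO80, the chromatin remodeller first found through inositol regulation, at -0.30 and SCS2, the membrane anchor of Opi1, at 0.30. In [gar-] culture 2 SCS2 read 654, against 1111 to 1485 on the other 5 arrays.

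On the fatty acid side, 0 of 10 genes of activation and precursor supply passed, with the acyl-CoA synthetase gene FAA2 at -0.20 and the acetyl-CoA synthetase gene ACS1 at 0.24. All 6 elongation genes lay above 0, as did 52.0% of all genes, with a median of 0.08, and none passed and none had groups that did not overlap. The largest were the elongase gene ELO2 at 0.28, with 1416 in [GAR+] culture 2 against 861 to 1032 on the other 5 arrays, and the ketoreductase gene IFA38 at 0.19. With the signals as deposited all 6 also lay above the median of all genes, which was then 0.16, but 4 of the 6 lay above 0 without [GAR+] culture 2, without [gar-] culture 1 or without both arrays numbered 2. Of 8 genes of mitochondrial fatty acid synthesis 0 passed, with CEM1 at 0.48 and MCT1 at -0.23. The value of CEM1 rests on [gar-] culture 2, which read 25.2 against 99.3 to 109 on the other 5 arrays. For the activators of OLE1 and their processing 0 of 4 passed. RSP5, the ubiquitin ligase gene of that route, gave 0.48 with 193 in [gar-] culture 2 against 301 to 429 elsewhere, and SPT23, an activator gene, 0.16. Fatty acid oxidation gave 0 of 12 and a median of -0.07, with FOX2 at -0.28 and PXA1 at 0.23. Its members POX1 and DCI1 did not exceed the highest non-yeast control on any array.

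**Figure D4:**
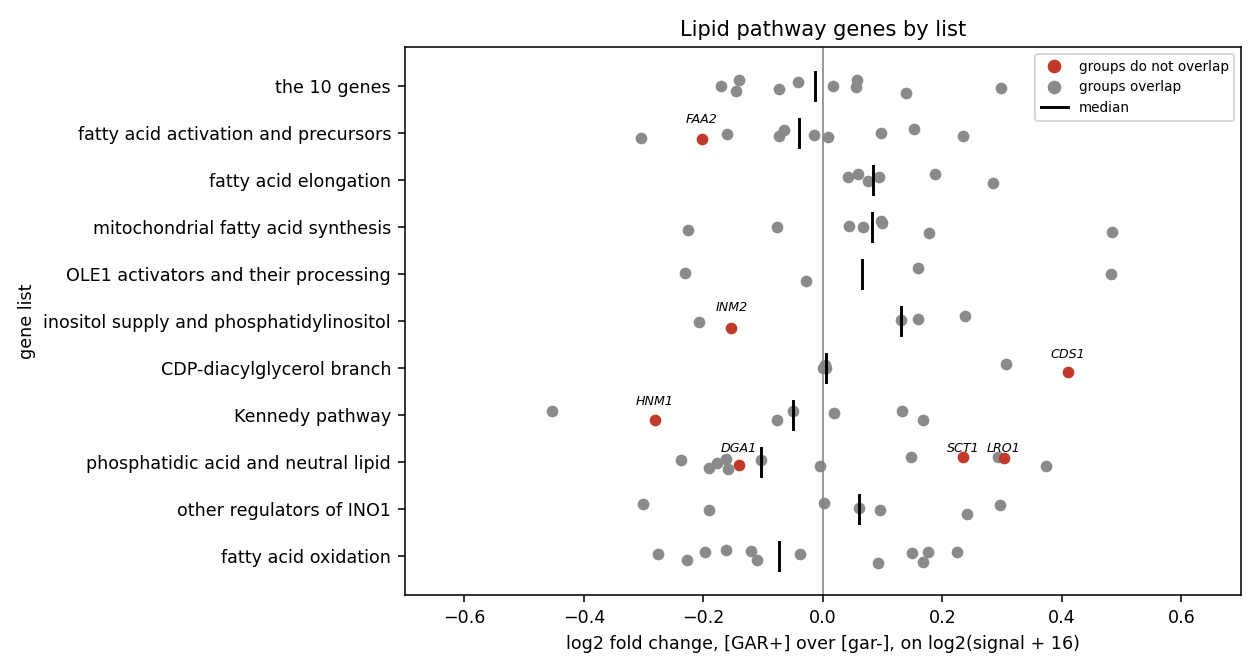
Log2 fold changes of [GAR+] over [gar-] cultures for the 10 genes and for the genes of 10 further lists, 1 point per gene with a bar at each median. The 7 red points are genes whose groups do not overlap, no point passed the test, and all lie between -0.45 and 0.48.

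The genes whose pattern over the 6 arrays was closest to that of OLE1 were BUD20, NUP60 and SLX9. Their mean absolute difference from it in centred log2 values was 0.04 each, beside a median of 0.24 over the 3935 genes compared. For INO1 they were DSE3, CDC21 and RNR2, at 0.02, 0.03 and 0.04, beside a median of 0.19 over 4368 genes. These were picked as the closest of all genes compared, and the pattern of INO1 is that of a signal near background.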

How the data were processed

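The deposited table holds 1 linear signal intensity per probe set for each of the 6 arrays. Per the submitters' processing notes it was made with MAS5 and GCOS. Its versions and scaling target are not given there. The 10 genes and all gene lists were chosen with earlier results of these data known. All 9335 probe sets were quantile-normalised and log2(signal + 16) was taken. The 6504 probe sets with 1 gene in the 2016 platform annotation were tested. Probe sets with several genes (328) or no name there (2503) were left out. All 6504 matched the R64 gene table, with 0 symbols changed. limma 3.58.1 in R 4.3.3 (lmFit, eBayes with intensity trend, two-sided, Benjamini-Hochberg) compared [GAR+] with [gar-] without covariates, on steps tested on simulated data. The design rested on 3 arrays per group, which limits precision (median standard error 0.18 over all genes). No arrays were identical. The labels number the cultures 1 to 3 in both groups without saying what a number shares. Each array's deviation from its group mean correlated with that of the same number in the other group (0.322, 0.347 and 0.346 for numbers 1 to 3, with 0.1 as the limit for pairing), so the number also entered a fit as a block. Genes named outside the 10 were the 2 of smallest unadjusted p per list (up to 4 had any passed), and the 3 genes closest in pattern to INO1 and OLE1. SCT1, INM2, DGA1, POX1 and DCI1 fall outside this rule and were named after their values were seen, as were HXT3 and the control genes. Alternatives covered normalization, pseudocount, dim probe sets, trend, block, probe set choice and arrays left out.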

Additional observations from a re-analysis of the deposited data

How the results depend on the processing

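Under every alternative run, 0 of the 10 genes and 0 of the 77 further lipid genes passed limma, and 1 probe set passed over all genes, also with the culture number as a replicate block. The block changed no call. With the signals as deposited 8 of 10 genes lay above 0 and their median was 0.14, but 80.6% of all genes then lay above 0 (52.0% after quantile normalization), with a median of 0.16, and 4 of the 10 exceeded that median. OLE1, INO2 and OPI1 then gave 0.014, 0.084 and 0.128. Averaging all probe sets of a gene gave 0.068 for FAS1 and 0.069 for FAS2. Without both arrays numbered 2, OLE1 gave 0.007, INO1 -0.045, INO2 0.058 and OPI1 0.067. The cause was not tested. With 1 array left out at a time, 4 to 6 genes lay above 0 and their median ran from -0.05 to 0.03. FAS1 ran from -0.45 to 0.16, OLE1 from -0.285 to 0.053, INO1 from -0.061 to 0.174, INO2 from -0.15 to 0.014, INO4 from -0.21 to 0.31, OPI1 from -0.15 to 0.055, CHO2 from -0.022 to 0.064 and OPI3 from -0.015 to 0.268, each taking both signs. CHO1 stayed above 0 (0.15 to 0.39) and FAS2 below (-0.22 to -0.03). The sign turned without [GAR+] culture 1 for INO4, without [GAR+] culture 2 for INO1 and without [GAR+] culture 3 for FAS1, INO4 and CHO2. It also turned without [gar-] culture 1 for OPI3, and without [gar-] culture 2 for OLE1, INO2, INO4, OPI1 and CHO2. Of 149 values of single genes under alternatives, 129 kept their sign and 20 did not, all without passing. INO1 has no value where probe sets needed a mean signal of at least 50. At a pseudocount of 1 its interval was 0.679-fold to 1.65-fold, and its nearness to the controls limits what it can show.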
